A study of Mus musculus with 23 samples.

Results

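Cirbp and Rbm3 encode the cold-inducible RNA-binding proteins of mammals, and the probe sets annotated with the single symbol of either gene were taken from the deposited value table. This gave 1 probe set, 1416332_at, for Cirbp and 0 for Rbm3, so the members measured were 1 of 18193 genes with a probe set of their own. Rbm3 was covered by 2 probe sets, 1422660_at and 1429169_at, that the platform annotation assigns both to Rbm3 and to its pseudogene Rbm3-ps. These are described by their identifiers as shared probe sets, since a signal from the gene and one from the pseudogene could not be told apart. Both genes were selected on their log2 signals on these same arrays, with results known, for their relation to the heat shock gene Hspa1a. Their differences between CF and control lungs, sexes and strains, and their relation to heat shock genes, are therefore given as a description with no test.

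RNA from whole right lungs was measured in male and female mice of 2 inbred backgrounds, C57BL/6 (B6) and BALB/c (BALB), carrying either the CF-/- genotype (CF) or CF+/+ (control). Strain, sex and genotype gave 8 groups, of which 7 held 3 arrays and the B6 CF males 2. No label states the CF allele, the ages of the mice or whether the arrays of a group were separate animals. Standard errors and p-values therefore measure spread among these samples, part of which may be technical. Values are the authors' deposited signals, taken from their range to be on the log2 scale, so that a difference of 1 is a 2-fold change, and the small number of arrays sets their precision.

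Cirbp and Rbm3 are small proteins with an RNA recognition motif and a glycine-rich tail. Their mRNAs accumulate when cells are cooled mildly and fall when cells are warmed, and both follow the daily rhythm of body temperature. Heat shock genes such as Hspa1a, which encodes an inducible chaperone of the HSP70 family, respond to temperature in the opposite direction through the transcription factor Hsf1. In bulk lung RNA, fewer cells of a type and less RNA per cell cannot be told apart.

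RefSeq's promoter table for GRCm38.p6 held 2 start sites for Cirbp and 1 for Hspa1a, each as a window of 300 bases, 250 before and 50 after the start. The 250 bases before the upstream start site of Cirbp (chr10:80167589-80167838, plus strand) and before the start of Hspa1a (chr17:34972157-34972406, minus strand) are shown because the 2 genes are compared array by array. Capitals mark TCCCCGCC in Cirbp, a motif known from studies of its cold response, and in Hspa1a the paired GAA units GAANNTTC of a heat shock element.
Cirbp: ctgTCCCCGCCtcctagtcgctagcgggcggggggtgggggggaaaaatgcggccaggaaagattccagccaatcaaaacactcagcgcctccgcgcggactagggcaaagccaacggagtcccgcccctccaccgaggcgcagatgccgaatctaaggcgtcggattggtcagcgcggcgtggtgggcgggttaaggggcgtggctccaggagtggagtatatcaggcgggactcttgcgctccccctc
Hspa1a: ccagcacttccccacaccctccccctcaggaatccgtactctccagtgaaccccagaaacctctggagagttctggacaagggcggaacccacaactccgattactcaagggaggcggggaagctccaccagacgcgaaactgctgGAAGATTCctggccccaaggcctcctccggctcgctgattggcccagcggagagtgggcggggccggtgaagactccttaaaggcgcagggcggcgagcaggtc
Searched on both strands, TCCCCGCC began 247 bases before the Cirbp start and was also present in the Hspa1a window, on the strand opposite to the gene. It occurred in 5.38% of the 32851 windows in the table. GAANNTTC was found once in Hspa1a, ending 97 bases before the start, and in 7.86% of all windows. Neither Cirbp window held GAANNTTC or the other orientation of the pair, TTCNNGAA, which occurred in 8.52% of windows. GGGCGG, the GC box, had 3 matches in the upstream Cirbp window, 4 in the other Cirbp window and 3 in Hspa1a, against 35.7% of all windows with a match. A match says only that these letters are present.

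Libraries and labels were checked over all arrays. Array medians lay between 4.56 and 4.64 and any pair of arrays correlated at 0.971 to 0.996. Lung markers were high on every array, with the surfactant gene Sftpc at 13.55 to 13.75 and the club cell gene Scgb1a1 at 13.57 to 13.75. Arrays of females had Xist at 7.97 to 8.44 and those of males at 4.26 to 5.10. For Cftr the values were 5.40 to 5.85 in BALB controls and 3.49 to 4.42 in BALB CF lungs. In B6 its ranges overlapped (4.04 to 4.58 in controls and 3.86 to 4.31 in CF), so Cftr did not check the genotype labels there.

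Cirbp stood apart in the control males of B6. They read 5.06, 4.95 and 5.15, a mean of 5.05 ± 0.10 (SD, n = 3). B6 control females read 7.0, 7.87 and 7.58 (7.48 ± 0.44, SD, n = 3). The 2 CF males of B6 both read 7.66, and the CF females 6.59, 7.0 and 6.96 (6.85 ± 0.23, SD, n = 3). No other array of the series reached down to the B6 control males, the next lowest being a BALB control male at 5.84. The share of all probe sets with such a gap is not given here.

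BALB groups lay closer together. Control females read 6.58, 5.88 and 7.01 (6.49 ± 0.57, SD, n = 3) and control males 5.84, 6.44 and 6.97 (6.42 ± 0.57, SD, n = 3). CF females read 6.86, 7.43 and 7.26 (7.18 ± 0.29, SD, n = 3) and CF males 7.43, 6.21 and 6.87 (6.84 ± 0.61, SD, n = 3). The ranges of BALB control and CF arrays overlapped in both sexes.

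**Figure D1:**
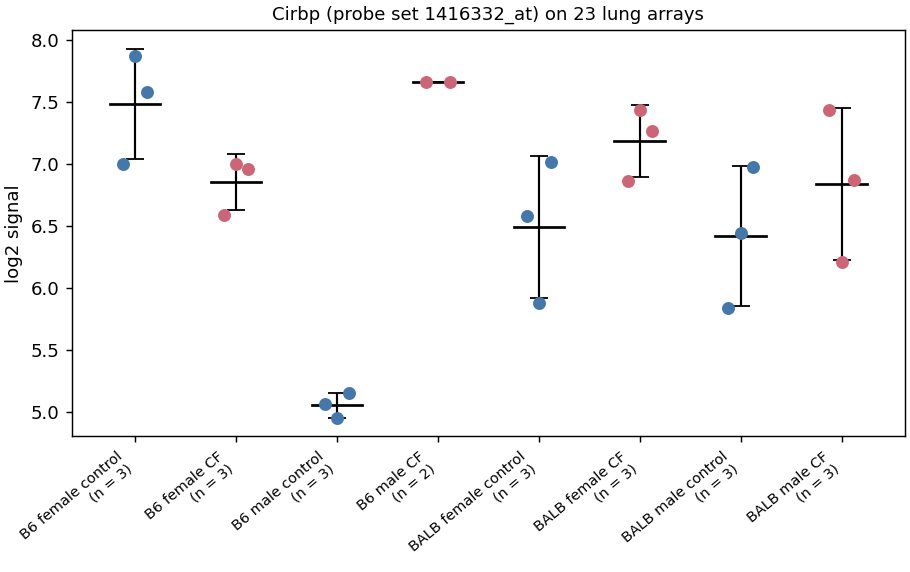
Log2 signal of the Cirbp probe set by group of strain, sex and genotype; each point is 1 array, horizontal lines are group means and bars are 1 SD over the group's 2 or 3 arrays. The 3 control males of B6 sit at 4.95 to 5.15 and every other array at 5.84 or above.

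Ordered by mean, the groups ran from B6 control males (5.05) through BALB control males (6.42), BALB control females (6.49), BALB CF males (6.84), B6 CF females (6.85), BALB CF females (7.18) and B6 control females (7.48) to B6 CF males (7.66). The step from the lowest group to the next was the only step between neighbours in this order without overlapping arrays. Over all 23 arrays Cirbp averaged 6.71, and its range of 2.92 was wider than that of 99.2% of the probe sets.

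In B6 the CF mean of both sexes exceeded the control mean by 0.99 (log2, SE 0.23, n = 5 and 6, means 7.26 and 6.27), and in BALB by 0.56 (SE 0.21, n = 6 and 6, means 7.01 and 6.45). The B6 average joined opposite values of the sexes. In B6 males CF exceeded control by 2.61 (SE 0.34, n = 2 and 3), a 6.10-fold difference. Of the 18193 genes 4 had a larger rise in that contrast, a rank that the choice of Cirbp on these arrays may have set. In B6 females CF lay below control by 0.63 on the log2 scale (difference -0.63, SE 0.30, n = 3 each), with arrays that overlapped. BALB females (0.69, SE 0.30) and BALB males (0.42, SE 0.30, n = 3 each) both had higher CF means. With Hspa1a of the same array as a covariate the BALB difference was -0.32 (SE 0.27), and that of B6 was 0.75 (SE 0.18). Hspa1a, for which Cirbp was selected, itself differed between CF and control in BALB (-3.27, SE 0.54). The covariate therefore takes out part of the genotype difference too, and what accounts for the Cirbp difference was not tested. With the 3' minus 5' difference of the control probe sets, a sign of RNA quality, as covariate the BALB difference was 0.97 (SE 0.18).

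Among controls, the mean of Cirbp in females exceeded that in males by 1.25 (log2, SE 0.21, n = 6 and 6, means 6.99 and 5.73). Limma called 2.43% of all 45037 probe sets in this comparison. Hspa1a, for which Cirbp was selected, differed between the same arrays in the opposite direction (-3.43, SE 0.54), so no test is given for Cirbp. In B6, 2 genes had a larger excess in females than Cirbp, a rank that its choice on these arrays may have set. The sexes differed by 2.43 (SE 0.30) in B6 and by 0.08 (SE 0.30) in BALB. The difference between those values was 2.35 (SE 0.43), a contrast added after the data were seen.

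Averaged over the sexes, BALB exceeded B6 controls by 0.19 (SE 0.21, n = 6 and 6, means 6.45 and 6.27), in a comparison that called 15.6% of all probe sets. The average again joined opposite values: BALB females lay below B6 females (-0.99, SE 0.30, n = 3 each) and BALB males above B6 males (1.36, SE 0.30, n = 3 each), values added after the data were seen.

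Hspa1a had a wider spread than Cirbp, and its high arrays were mainly control males. It read 9.05, 8.94 and 8.19 in B6 control males and 10.73, 10.83 and 9.55 in BALB control males. B6 control females read 8.16, 4.43 and 4.62, and BALB control females 7.29, 6.82 and 5.36. CF females were low in both strains, at 5.0 to 5.28 in B6 and 3.83 to 4.54 in BALB. CF males read 7.22 and 7.83 in B6, and 4.33, 7.41 and 6.73 in BALB. Signal from Hspa1a and from its near-identical copy Hspa1b could not be told apart here.

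The groups were not ordered alike by the 2 genes. BALB control males had the highest Hspa1a of the series and yet more Cirbp (5.84 to 6.97) than B6 control males (4.95 to 5.15). The 2 B6 CF males combined an Hspa1a of 7.22 and 7.83 with a Cirbp of 7.66. Across the 23 arrays Pearson's r of Cirbp with Hspa1a was -0.58 and Spearman's rho -0.57. It was -0.65 in B6 (n = 11) and -0.66 in BALB (n = 12), and -0.58 without BALB control males 1 and 2, the arrays farthest from the median of Hspa1a. Among controls r was -0.59 (n = 12) and among CF arrays 0.02 (n = 11). For deviations from the 8 group means it was -0.69. All these points share the arrays' normalization and the group structure, and 2.93% of the genes had an r with Hspa1a at or below that of Cirbp.

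Hspa8, the constitutive HSP70 chaperone, followed Cirbp more closely than Hspa1a did. B6 control males read 11.70 to 11.81 by its brightest probe set and B6 control females 10.19 to 10.94. B6 CF males read 10.59 and 10.78, BALB control males 11.23 to 11.80 and BALB CF females 10.53 to 10.81. Pearson's r of Cirbp with Hspa8 was -0.91 and rho -0.94 over 23 arrays, with r of -0.96 in B6 (n = 11), -0.89 in BALB (n = 12), -0.80 among CF arrays (n = 11) and -0.91 among controls (n = 12). It was -0.92 for deviations from the group means and -0.89 without the B6 control males (n = 20). Of the other Hspa8 probe sets, r was -0.87 and -0.89 for 2 and -0.36 for the dimmest, 1431182_at.

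**Figure D2:**
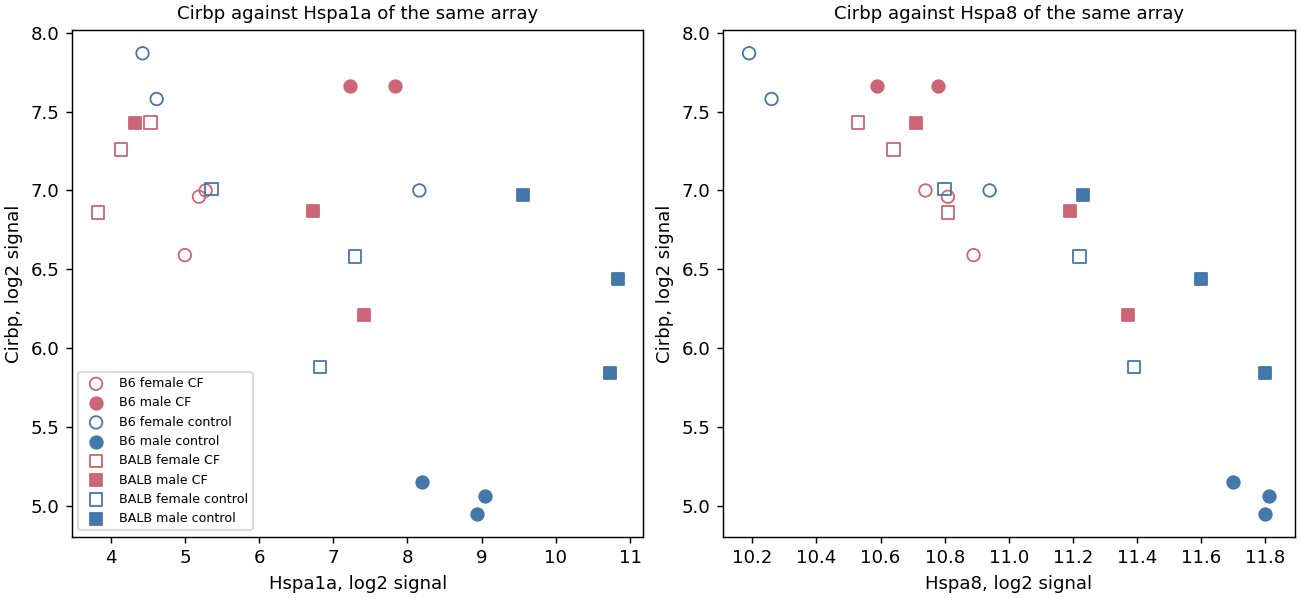
Log2 signal of Cirbp against Hspa1a (left) and Hspa8 (right) of the same array for 23 arrays; circles are B6, squares BALB, open symbols females, filled symbols males, blue controls and red CF. The left panel spreads widely (r = -0.58), with both B6 CF males at a Cirbp of 7.66 and the B6 control males below the rest. The right panel is close to a line (r = -0.91).

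The other heat shock genes differed in their r with Cirbp. Of 29 heat shock response genes 16 had an r with Cirbp under -0.7, against 0.81% of all genes, and 0 had an r over 0.7, against 1.54%. Cirbp was selected for its relation to Hspa1a, which is on this list. Hspa1a had an r of 0.98 with Hspa1b and 0.91 with Dnaja1, though 0.01 with Hsf2. The shares are therefore a description and no independent test. The remaining 13 included the HSP110 family member Hspa4 (-0.05) and the small heat shock protein Cryab (-0.10). Lowest were Fkbp4 (-0.91) and Stip1 (-0.90), co-chaperones of HSP90, and Ahsa1 (-0.89), which stimulates its ATPase. Hsp90aa1, an inducible HSP90, had -0.82 and the mitochondrial chaperonin Hspd1 -0.83. Serpinh1, the collagen chaperone, had -0.86 with Cirbp but only 0.60 with Hspa1a. The HSP70 co-chaperone Dnajb1 had 0.96 with Hspa1a and -0.53 with Cirbp. Of 20 genes of the unfolded protein response in the endoplasmic reticulum, 10 had an r under -0.7, and their median was -0.73 against 0.00 for all genes.

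**Figure D3:**
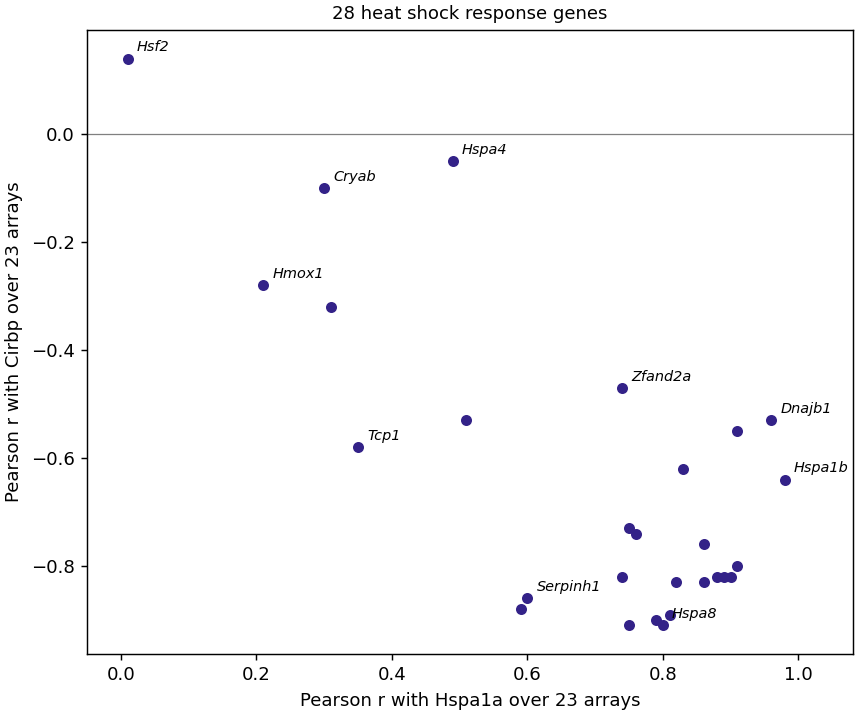
Pearson r over 23 arrays of 28 heat shock response genes with Hspa1a (horizontal) and with Cirbp (vertical); each point is 1 gene. Most genes lie at high r with Hspa1a and low r with Cirbp, Hspa8 at 0.80 and -0.91, Dnajb1 at 0.96 and -0.53.

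Averaged over the sexes, heat shock genes were lower in CF lungs of both strains, which share no arrays. The list was not counted within each sex, and in B6 the sexes could differ. Mean Hspa8 was 10.81 in CF and 10.46 in control females of B6, and 10.68 and 11.77 in the males. Mean Hspa1a was 5.15 in CF and 5.74 in control females of B6, and 7.52 and 8.73 in the males. In B6, 13 of 29 passed and were lower and 0 higher, beside 1.5% and 3.92% of all genes (limma, adjusted p under 0.05). Hsp90aa1 fell by 0.67 (log2, SE 0.11, limma adjusted p = 0.00107) and Hspd1 by 0.62 (SE 0.12, adjusted p = 0.00286). Hspa1a, for which the members were selected, differed by -0.89 (SE 0.57) and was not among the 13. The list was chosen with earlier results known, so its counts are a description. In BALB, 15 of 29 were lower and 0 higher, beside 2.66% and 2.87% of all genes. Hspa1a and its near-identical copy Hspa1b were both among the 15, though their signals could not be told apart. Dnajb1 fell by 1.62 (SE 0.19, limma adjusted p = 6.4e-05) and Bag3, a co-chaperone of HSP70, by 0.69 (SE 0.11, adjusted p = 0.000754). Median differences over the list were -0.55 in B6 and -0.46 in BALB, against 0.008 and -0.006 over all genes. Without B6 CF male 1 the B6 count was 5.

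**Figure D4:**
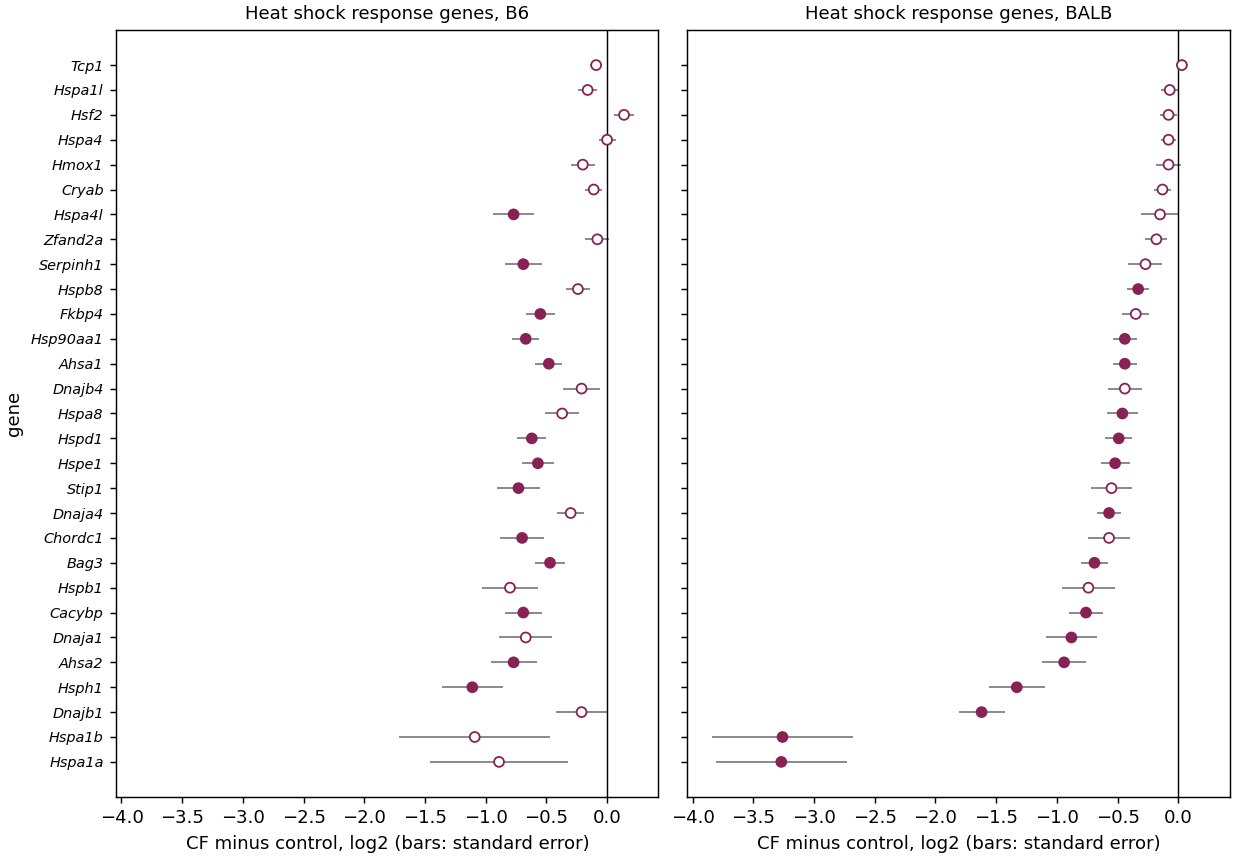
CF minus control difference in log2 signal for 29 heat shock response genes in B6 (left) and BALB (right), with both sexes averaged; bars are standard errors of the limma fit, and filled points passed an adjusted p of 0.05. In B6, 13 genes passed and in BALB 15, all of them lower in CF, with Hspa1a at -0.89 and -3.27. The 15 include Hspa1a, for which the members were selected, and its near-identical copy Hspa1b, so the counts are a description.

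Control females against control males gave the largest heat shock count: 22 of 29 were lower in females and 0 higher, beside 0.912% and 2.51% of all genes. Hsph1, an HSP110 chaperone, was lower in females (log2 difference -2.18, SE 0.23, limma adjusted p = 1.2e-05). Hspa1a, for which the members were selected, had a difference of -3.43 (SE 0.54). It is given with no test, though the 22 include it and its near-identical copy Hspa1b, and the count is a description. Between the strains' controls 2 were higher and 2 lower in BALB, beside 8.64% and 9.58% of all genes.

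The shared probe set 1422660_at, brighter than 98.3% of probe sets, had the same low group as Cirbp. It read 8.97, 9.17 and 8.98 in B6 control males, against 10.28, 10.14 and 9.99 in B6 control females, 10.27 and 10.60 in B6 CF males and 10.01, 9.99 and 10.18 in B6 CF females. In BALB it read 9.52, 9.28 and 9.73 in control females, 9.18, 9.68 and 9.80 in control males, 9.29, 10.29 and 9.95 in CF females and 9.80, 9.95 and 9.96 in CF males. The B6 control males lay below every other array, but only just: 9.17 against 9.18 in BALB control male 1. How many of all probe sets set this group apart is not given. The CF difference of 1422660_at was 0.66 (log2, SE 0.14) in B6, 1.39 (SE 0.21) in B6 males and -0.07 (SE 0.19) in B6 females, and 0.34 (SE 0.13) in BALB. Between control females and males it differed by 0.52 (SE 0.13), and by 0.43 without BALB control male 1.

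With Cirbp this probe set correlated at r = 0.84 and rho = 0.78 over 23 arrays, at 0.93 in B6 (n = 11) and 0.68 in BALB (n = 12), and at 0.44 for deviations from the group means. Its r with Hspa1a was -0.38 over all arrays and 0.16 for deviations from the group means. With Hspa8 it was -0.74, and -0.25 for the deviations.

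The other shared probe set, 1429169_at, had its highest group means in control males. It read 5.85, 5.96 and 5.70 in B6 control males and 6.05, 6.22 and 6.10 in BALB control males, against 5.86, 4.97 and 5.41 in B6 control females and 5.73, 5.85 and 5.64 in BALB control females. CF arrays read 5.08, 4.99 and 5.68 in B6 females, 5.02 and 5.59 in B6 males, 5.04, 5.21 and 4.87 in BALB females and 4.70, 5.70 and 5.40 in BALB males. BALB CF arrays lay below BALB control arrays in females and in males without overlap. How many of all probe sets separate in this way is not given. The CF difference was -0.78 (log2, SE 0.16) in BALB and -0.35 (SE 0.17) in B6. With Hspa1a of the same array as a covariate it was -0.08 (SE 0.19) in BALB and -0.16 (SE 0.13) in B6. Since Hspa1a itself differed by genotype in BALB, this fit cannot part Hspa1a from genotype.

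For 1429169_at r with Hspa1a was 0.84 and rho 0.88 over 23 arrays, and r was 0.73 in B6, 0.90 in BALB and 0.74 for deviations from the group means. Its r with Cirbp was -0.59. The shared probe sets correlated with each other at -0.39 over 23 arrays and at 0.32 for deviations from the group means. Rbm3os, annotated as the opposite strand of Rbm3, stayed at 3.01 to 3.44 on all arrays, and 13.4% of probe sets had a lower mean.

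**Figure D5:**
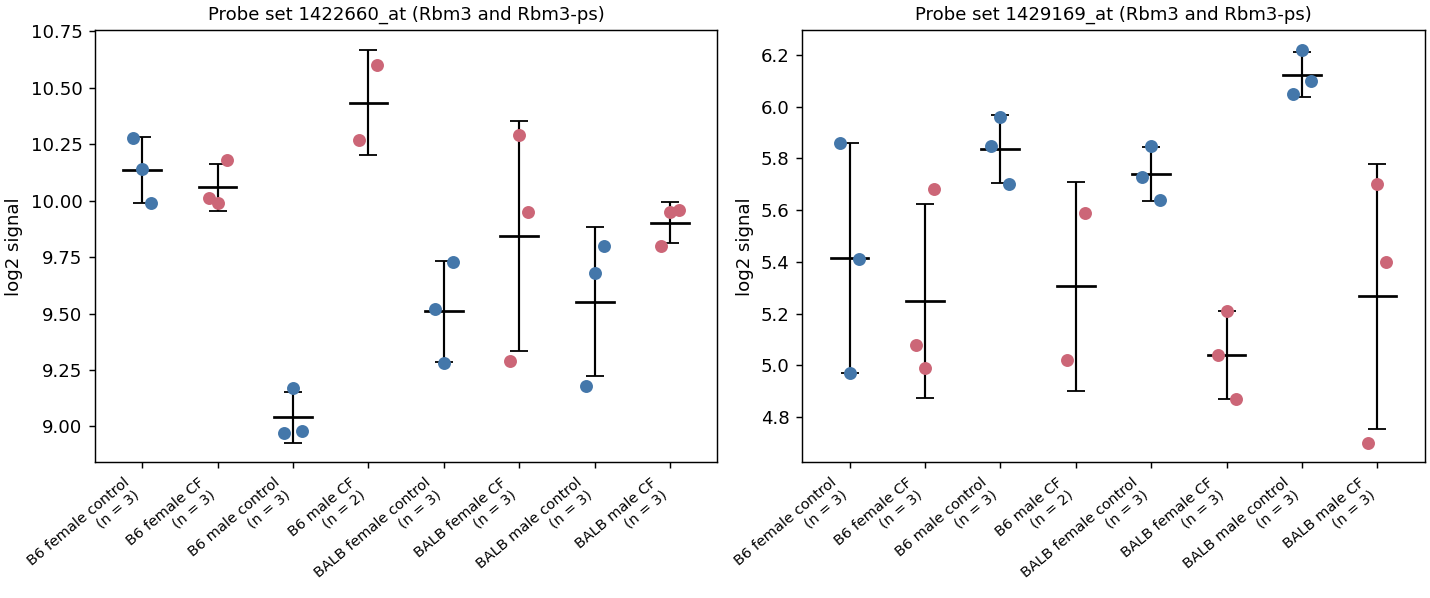
Log2 signal of the probe sets 1422660_at (left) and 1429169_at (right), each annotated to both Rbm3 and Rbm3-ps, by group; points are arrays, lines group means and bars 1 SD over 2 or 3 arrays. The B6 control males are lowest on the left (8.97 to 9.17), and the BALB control males highest on the right (6.05 to 6.22).

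Genes most like Cirbp were searched among genes, 1 probe set each, whose mean reached the median over all probe sets, by Pearson's r over 23 arrays. Highest were Hnrnpd (0.92), which encodes the RNA-binding protein AUF1, and Haghl (0.92), followed by Alkbh3 (0.91), Hddc2 (0.91), Serhl (0.90), Nfrkb (0.90), Gimap6 (0.89) and Mical1 (0.87). Lowest, beside Fkbp4, Hspa8, Stip1 and Ahsa1, were the HSP70 cofactor St13 (-0.91), the endoplasmic reticulum stress factor Manf (-0.90), 4930486L24Rik (-0.90) and the dynein light chain Dynll1 (-0.90). For 1422660_at the highest were Firre (0.92) and Ppcdc (0.90) and the lowest Lman2l (-0.92) and Serpinh1 (-0.89). For 1429169_at the highest were the splicing regulator Tra2a (0.88) and Ccdc117 (0.88) and the lowest Zfp688 (-0.86) and Zbtb22 (-0.84).

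Relatives of the members among RNA-binding proteins were counted next. Of 28 proteins with an RNA recognition motif, 1 was higher in B6 CF lungs, Hnrnpd (0.29, SE 0.08, limma adjusted p = 0.0377), and 0 lower, beside 3.92% and 1.5% of all genes. The number past the threshold in B6 was 3 with quantile normalization, 3 with array weights, 4 among probe sets at or above the median level and 0 to 3 with 1 array left out. By its other probe sets Hnrnpd did not pass (0.03 and -0.06). In BALB 0 were higher and 3 lower, beside 2.87% and 2.66% of all genes: Rbm4b (-0.33), Rbm14 (-0.30) and Elavl1 (-0.21). With 1 array left out that count was 0 to 3, and it was 0 without BALB CF female 1 and without BALB control male 1. In control females 4 were higher than in control males, beside 2.51% of all genes: Rbmx (0.49), Hnrnpd (0.47), Hnrnpr (0.37) and Hnrnpa0 (0.26). Of the same 28 genes, 6 had an r with Cirbp over 0.7 and 2 under -0.7, beside 1.54% and 0.81% of all genes. Their median r was -0.11, and these shares are a description. Of 22 SR splicing factors and CLK kinases, kinases whose activity is known to depend on temperature, 0 passed in B6 and 1 in BALB, Srsf5 (0.53, SE 0.09, adjusted p = 0.000868).

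The list of genes tied to Cirbp or Rbm3 in the literature included receptors for Cirbp released from cells (Tlr4, Ly96, Trem1), temperature-sensing channels and reported mRNA targets. Of 16 measured, 1 was higher in CF in each strain, the replication protein Rpa2 (0.28, SE 0.08, limma adjusted p = 0.0424 in B6; 0.35, SE 0.07, adjusted p = 0.00756 in BALB), and 0 were lower. The call in B6 was lost with the replicate number as a block and in 13 of 23 fits that left out 1 array. Of all genes 3.92% were higher in B6 and 2.87% in BALB. Hypoxia is also known to raise Cirbp and Rbm3 mRNA. Among 16 hypoxia genes 1 was higher and 1 lower in B6 and 1 lower in BALB, beside 3.92% higher and 1.5% lower of all genes in B6 and 2.66% lower in BALB. P4ha1, a collagen prolyl hydroxylase, was the lower gene in both (-0.72, SE 0.15, and -0.57, SE 0.14).

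Of 21 circadian genes, 5 were higher and 1 lower in B6 CF lungs, and 0 higher and 2 lower in BALB CF lungs. The shares of all genes were 3.92% and 1.5% in B6, and 2.87% and 2.66% in BALB. In B6 the clock output factor Hlf rose by 0.86 (SE 0.18, limma adjusted p = 0.00569) and Per3 by 0.58 (SE 0.15, adjusted p = 0.0249). In BALB Per1 fell by 1.35 (SE 0.22, adjusted p = 0.00111). Without B6 control female 1 the B6 count was 15 and without B6 control female 2 it was 2. Between the strains' controls 9 were higher and 5 lower in BALB, beside 8.64% and 9.58% of all genes. Between control females and males 5 were higher and 2 lower in females, beside 2.51% and 0.912% of all genes. The output factor Dbp stood at 1.87 (SE 0.27, limma adjusted p = 0.000555). No label gives the time of day of tissue collection.

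Glucocorticoid response, immediate early and unfolded protein response genes were counted as well, beside 3.92% higher and 1.5% lower of all genes in B6 CF lungs and 2.87% and 2.66% in BALB. Of 15 glucocorticoid response genes 3 were higher in B6 and 4 lower in BALB CF lungs, with Sgk1 at 0.37 (SE 0.06, limma adjusted p = 0.00163) in B6 and Errfi1 at -1.01 (SE 0.18, adjusted p = 0.00254) in BALB. This list shares Per1 and Tsc22d3 with the circadian genes and Dusp1 with the immediate early genes, so the counts are not separate. Of 19 immediate early genes 4 were higher in B6, and 1 higher and 7 lower in BALB. Without B6 control female 1 the B6 counts were 8 and 8, and without B6 control female 2 they were 1 and 1. Of 20 unfolded protein response genes 10 were lower in B6 and 1 in BALB, with Hspa5, the chaperone BiP, at -0.54 (SE 0.11, adjusted p = 0.00698) in B6. Without B6 CF male 1 that count was 4.

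Lymphocyte markers varied with Cirbp. The summed level of 5 B cell markers correlated with it at r = 0.77 over 23 arrays (0.68 for deviations from the group means), and that of 6 T cell markers at 0.70 (0.58). The B cell sum was 24.8 to 26.9 in B6 control males, 29.0 to 32.0 in B6 control females, 29.3 to 32.2 in B6 CF males, 27.0 to 31.8 in B6 CF females, 24.3 to 28.4 in BALB control males, 28.2 to 30.4 in BALB control females, 29.4 to 31.9 in BALB CF males and 31.8 to 33.1 in BALB CF females. The T cell sum was 30 to 31.4 in B6 control males, 32.8 to 33.4 in B6 control females, 36.9 to 37.6 in B6 CF males and 35.7 to 37.4 in B6 CF females. In BALB it was 29.9 to 35.8 in control males, 33.2 to 33.5 in control females, 33.9 to 34.9 in CF males and 36.3 to 37.0 in CF females. Both sums overlapped between the control males of B6 and of BALB. Their part in the Cirbp result was not tested. The sums of the other 14 marker lists, among them alveolar, endothelial, muscle, squamous, intestinal and fat cell genes, correlated with Cirbp at -0.27 to 0.28. For deviations from the group means their r was -0.46 to 0.49, with neutrophil 0.49, thymus 0.42, endothelial 0.39, intestine -0.36 and alveolar type 2 genes -0.46. Of 5 neutrophil genes 4 were higher in CF lungs of each strain, beside 3.92% of all genes in B6 and 2.87% in BALB. Among the 4 was the receptor Cxcr2 (0.62, SE 0.10, limma adjusted p = 0.000798 in B6, and 0.69, SE 0.09, adjusted p = 0.000178 in BALB). The part of these lists in the Cirbp result was not tested either. The 3' minus 5' difference of the control probe sets correlated with Cirbp at 0.08 for Gapdh and 0.14 for actin.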

How the data were processed

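Biotin-labelled total RNA was measured on 23 arrays, per the labels. The authors' deposited values are taken as log2 signals from their range (1.79 to 13.82) and like distributions; how they were summarised and normalized is not given in the sources used here, and their log base was not stated. Of 45101 probe sets, 64 controls were left out and 45037 tested. Of these 34945 had 1 symbol, 932 several and 9160 none in the platform annotation. No value is credited to a single gene from a probe set with several symbols.

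Means of the 8 groups were fitted together with limma 3.58.1 (lmFit, eBayes) in R 4.3.3 on 15 residual degrees of freedom. Benjamini-Hochberg adjustment ran over all probe sets of a comparison, at a threshold of 0.05. Effects of CF and of strain average both sexes, and those of sex both strains. Lists were counted on the brightest probe set per gene. The fit was tested on simulated data. The members and lists were chosen with earlier results of these data known, so the sex and strain tests planned for the members are given without p-values.

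Named genes were the members, Hspa1a, up to 4 genes of lowest p per list and the 8 genes of highest and lowest r with Cirbp. Hspa8 as a second heat shock gene, and Serpinh1, Dnajb1, Hsp90aa1 and Hspd1 for their r with Cirbp, were chosen after their values were seen. Alternatives were other normalization, array weights, a level filter, covariates, a replicate block and leaving out each array.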

Additional observations from a re-analysis of the deposited data

Results flagged for a closer look

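The CF difference of Cirbp ran in opposite directions in the sexes of B6. All 3 CF females lay below the mean of the control females (mean difference -0.63), and both CF males lay above that of the control males (2.61). B6 and BALB females were opposite in the same way (-0.63 and 0.69). These differences were not tested, since the genotype contrasts may have been used to pick the gene. With both sexes pooled, Cirbp, the shared Rbm3 and Rbm3-ps probe sets, Hspa1a and Hspa8 were checked for arrays far from the rest of their strain and genotype. None was flagged in 20 checks, each of 1 probe set in 1 group, where chance flags about 1 in 20. The checks share arrays and are not independent. Such pooling cannot flag an array that differs from its own sex but lies near the other. Hspa1a of B6 control female 1 was 8.16, against 4.43 and 4.62 in the other B6 control females and 8.19 to 9.05 in the males.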

How the results depend on the processing

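Alternatives to the main values of Cirbp were marked where they changed a direction or moved a value past a margin. For a CF difference that margin was the residual SD. Marked settings were the covariate Hspa1a (CF difference in BALB -0.32), and, added after the data were seen, splits by sex or strain. The RNA quality covariate raised the CF difference in BALB, as given above, by less than the margin. In females alone the CF difference in B6 was -0.63 and in males alone 2.61. Between the strains' controls it was -0.99 in females and 1.36 in males, and between the sexes 0.08 in BALB. The r of Cirbp was -0.91 with Hspa8 and -0.84 with the mean of the other heat shock genes. For 1429169_at the covariate Hspa1a gave a CF difference of -0.08 in BALB. For 1422660_at the sign turned in B6 females (CF difference -0.07), in BALB for sex (-0.05), in males for strain (0.51) and for r over deviations (0.16). With array weights 3824 probe sets passed in BALB and 3666 between the sexes, against 2217 and 1094. The cause was not tested.

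Leaving out 1 array at a time, Cirbp differed by 0.87 to 1.09 in B6, 0.40 to 0.71 in BALB, 0.05 to 0.34 between strains and 1.11 to 1.40 between sexes, and its r with Hspa1a was -0.63 to -0.54. The strain difference of 1422660_at was -0.12 to 0.03. Counts of probe sets ran from 852 (without B6 CF male 1) to 2329 in B6, 1368 to 2851 in BALB, 5898 to 7309 between strains and 477 to 1772 between sexes. Heat shock genes lower in CF numbered 5 to 14 in B6 and 10 to 21 in BALB.

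The replicate numbers did not pair the arrays, as same-numbered arrays of different groups had a median r of 0.00 between deviations, with 17 of 77 pairs over 0.1. With the number as a replicate block the Cirbp differences were 1.04 in B6, 0.56 in BALB, 0.19 between strains and 1.25 between sexes, and 2081 probe sets passed in B6 and 2173 in BALB. The block took the count of genes tied to Cirbp or Rbm3 in B6 from 1 to 0. Averaging probe sets of Cirbp or of Hspa1a was not run, since each had 1.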
